A study of Mus musculus with 11 samples.

Results

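Collagen chains are the genes whose symbol has the form Col, a type number, the letter a and a chain number. The Affymetrix mouse array used here carried 42 of them, read by 82 probe sets, among 18193 genes with a single-symbol probe set. They comprise 11 fibrillar chains, 8 chains of basement membranes and 23 chains of other types. Of the 42, 34 passed the filter on dim probe sets and entered the fit of 13614 genes, namely 10 fibrillar, 7 basement membrane and 17 other chains. A probe set passed if its signal exceeded the array-wide median on 2 or more arrays, so a chain can pass through 1 compartment alone. Counts over the 34 are therefore given as descriptions.

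Each collagen molecule is a triple helix of 3 chains, which can be copies of 1 gene product or products of several genes. Fibrillar collagens (types I, III and V among them) assemble into the fibrils that carry tension in connective tissue, and fibril-associated collagens bind to the surface of those fibrils. Type IV collagen forms the sheet-like network of the basement membranes under every renal and urothelial epithelium, to which the multiplexins, types XV and XVIII, are attached. Type VI forms beaded filaments at the border between cells and matrix, type VIII forms networks from short chains, and a further group of collagens spans the cell membrane.

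The samples were wild-type CD-1 mouse tissue of stage E15.5 (Theiler stage 23), with sex unknown, cut out by laser capture microdissection. The 4 compartments were ureteral smooth muscle with 3 arrays, urothelium, the epithelial lining of the ureter, with 3, cortical collecting duct with 2 and early proximal tubule with 3. Every array carried RNA pooled from about 50 sections of 5 kidneys and amplified in 2 rounds, and CD-1 is an outbred stock, so no array stands for 1 animal. Whether pools shared fetuses is not given in the sources used here, and the p-values describe only how far these pools differ, some of which may be technical.

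The 4 compartments were checked by the summed signal of marker lists, in linear array units. The 10 smooth muscle genes summed to between 234815 and 300981 in muscle arrays, against 15514 to 68976 in urothelium, 4578 to 5024 in collecting duct and 3867 to 6940 in proximal tubule. The 10 urothelial genes summed to between 45510 and 128056 in urothelium and to at most 14937 in any array of another compartment. The collecting duct list summed to 102323 and 114822 in collecting duct, 26919 to 49924 in urothelium, 8759 to 17981 in proximal tubule and 2678 to 3092 in muscle. In urothelium replicate 3 its sum of 49924 lay above that array's urothelial sum of 45510. The proximal tubule list summed to between 148278 and 214892 in proximal tubule and to at most 11246 in any array of another compartment. A list of 10 interstitium and fibroblast genes, cells rich in collagen, summed to between 196005 and 213286 in muscle, 11620 to 54453 in urothelium, 13686 to 30433 in collecting duct and 8940 to 25161 in proximal tubule, and 2 of its genes, Dcn and Lum, bind collagen themselves. Its level thus moves with the muscle-high chains described below, and its part in them was not tested. A date-like piece of the sample labels, whose meaning is not stated, places each array in 1 of 4 label batches, and urothelium has no batch in common with collecting duct or proximal tubule.

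Promoter sequences of 4 chains are shown because the arrays bear on them. Col1a2 and Col8a2 are a fibrillar and a network-forming chain that were high in muscle, and Col4a1 and Col4a2, the main type IV chains, lie on opposite strands. The starts used for the windows of Col4a1 and Col4a2 are 21 bases apart, and these windows share 78 bases. The sequences are RefSeq's on build GRCm38.p6, each running from 250 bases before to 50 bases after a start given for the gene and read along the gene. For Col4a1 that start is at 11312826, while the gene's own record extends to 11312889. Col1a2 lies at chr6:4505368-4505667 on the plus strand, Col8a2 at chr4:126286544-126286843 on the plus strand, Col4a1 at chr8:11312777-11313076 on the minus strand and Col4a2 at chr8:11312555-11312854 on the plus strand. Capitals mark 3 motifs, searched on both strands. The CCAAT box was read as CCAAT, the GC box as GGGCGG and the TATA box as TATAAA, each also in its reverse complement, and overlapping matches run together.
Col1a2: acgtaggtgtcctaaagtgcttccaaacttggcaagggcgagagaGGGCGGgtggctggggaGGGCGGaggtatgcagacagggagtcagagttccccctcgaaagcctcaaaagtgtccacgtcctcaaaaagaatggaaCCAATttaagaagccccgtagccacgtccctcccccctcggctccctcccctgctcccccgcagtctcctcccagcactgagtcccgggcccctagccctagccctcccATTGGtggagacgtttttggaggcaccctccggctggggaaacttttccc
Col8a2: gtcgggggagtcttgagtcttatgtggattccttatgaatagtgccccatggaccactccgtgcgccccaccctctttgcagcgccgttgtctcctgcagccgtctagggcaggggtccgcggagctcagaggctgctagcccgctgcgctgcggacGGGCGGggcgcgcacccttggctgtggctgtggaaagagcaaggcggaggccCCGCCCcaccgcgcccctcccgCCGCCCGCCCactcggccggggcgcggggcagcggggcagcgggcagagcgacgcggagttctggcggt
Col4a1: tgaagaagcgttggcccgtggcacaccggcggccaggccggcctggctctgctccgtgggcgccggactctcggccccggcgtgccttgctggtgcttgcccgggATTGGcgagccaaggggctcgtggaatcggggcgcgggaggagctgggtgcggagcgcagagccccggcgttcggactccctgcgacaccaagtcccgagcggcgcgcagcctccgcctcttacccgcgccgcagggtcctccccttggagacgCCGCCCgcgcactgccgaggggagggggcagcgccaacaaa
Col4a2: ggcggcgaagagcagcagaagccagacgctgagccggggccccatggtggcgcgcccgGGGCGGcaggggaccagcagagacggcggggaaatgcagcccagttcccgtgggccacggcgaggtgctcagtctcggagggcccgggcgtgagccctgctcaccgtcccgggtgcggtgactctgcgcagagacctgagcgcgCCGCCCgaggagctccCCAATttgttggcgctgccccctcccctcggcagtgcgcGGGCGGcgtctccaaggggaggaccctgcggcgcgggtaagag

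Col1a2 held both a CCAAT box and a GC box, Col8a2 held GC boxes without a CCAAT box, and both type IV promoters held each kind. No TATA box letters were found in these 4 windows. Over 36 windows of the 33 members that the RefSeq table matched, 22 held a GC box (61.1%, against 35.7% of all 32851 windows), 13 a CCAAT box (36.1%, against 37.4%) and 5 a TATA box (13.9%, against 13.6%). No window was matched for Col1a1, Col2a1, Col4a3, Col5a2, Col9a3, Col12a1, Col14a1, Col22a1 and Col26a1. Several chains are next to each other in the genome with no protein-coding gene between them: Col3a1 and Col5a2, Col6a1 and Col6a2, Col4a1 and Col4a2, Col4a3 and Col4a4, Col4a5 and Col4a6, Col6a4 and Col6a5, and Col9a1 and Col19a1.

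Ureteral smooth muscle was first compared with the other 3 compartments, whose means were weighted equally. Of the 34 chains tested, 18 were higher in muscle, 2 were lower and 14 were not called. A call needs a limma adjusted p under 0.05 and a log2 fold change of at least 1 in size, on the scale of log2(signal + 55), which understates the folds of dim probe sets. Over all genes tested, 15.2% were called, 6.05% higher and 9.12% lower. The median log2 fold change was 1.61 over the 34 chains and -0.07 over all genes. By group, 6 of 10 fibrillar chains were higher and 0 lower, 11 of 17 chains of other types were higher and 0 lower, and of 7 basement membrane chains 1 was higher and 2 were lower. In this bulk material, fewer cells that make a chain and less of its RNA per cell cannot be told apart.

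**Figure D1:**
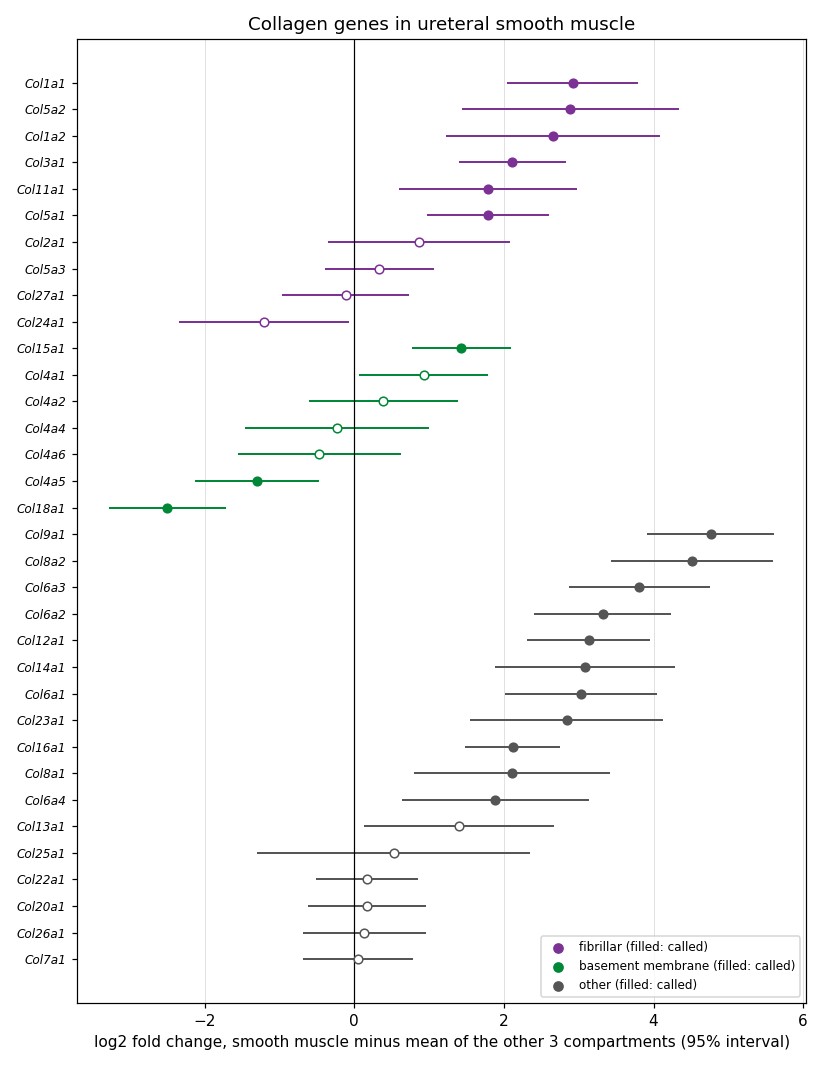
Log2 fold change of each tested collagen chain, ureteral smooth muscle minus the mean of urothelium, collecting duct and proximal tubule (weighted equally) on the log2(signal + 55) scale, with its 95% interval, by group, filled where called. The fibrillar and other chains lie mostly to the right of 0, up to 4.76 for Col9a1, and Col18a1 of the basement membrane group is lowest at -2.50.

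The 3 muscle arrays lay above all 8 other arrays for 15 of the 34 tested chains, all of them among the 18 called higher. They lay below all others for 2 of the 34, both called lower. The calls rest on the same arrays, so these counts are no separate support for them. Over all genes tested, 5.21% had muscle arrays above all others and 5.13% below. For Col6a4, Col8a1 and Col23a1 the arrays overlapped. Muscle held the highest compartment mean for 21 of the 34 chains, where 24.4% of all genes did. Among the called chains, 13 had 16 further probe sets that passed the filter, and all 16 gave the sign of the one reported. With label batch as a block, 15 of the 20 calls were kept, and Col4a5, Col5a2, Col6a4, Col8a1 and Col11a1 were not called.

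Among the fibrillar chains, Col1a1, Col1a2, Col3a1, Col5a1 and Col5a2 were higher in muscle, by 3.45-fold to 7.56-fold. Col1a1 and Col1a2 encode the chains of type I collagen, the main fibril of most connective tissue. Col1a1 had log2 values of 14.83, 15.62 and 15.12 in muscle, 12.86, 11.16 and 12.58 in urothelium, 11.97 and 12.59 in collecting duct and 12.14, 12.02 and 12.85 in proximal tubule. Its log2 fold change was 2.92 (SE 0.40, adjusted p = 0.000262), and no array of another compartment reached a muscle array. Col1a2 had 15.90, 16.13 and 15.73 in muscle, 14.28, 11.46 and 14.36 in urothelium, 12.36 and 14.48 in collecting duct and 11.90, 12.94 and 14.20 in proximal tubule. The groups did not overlap, but collecting duct and proximal tubule arrays were spread over more than 2 log2 units, and the log2 fold change was 2.65 (SE 0.66, adjusted p = 0.0142). The Col1a2 call ended without muscle replicate 1 (adjusted p = 0.0523) or muscle replicate 2 (adjusted p = 0.0553).

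Type III collagen, the homotrimer of Col3a1, is typical of distensible organs and often shares fibrils with type I. Col3a1 had 18.24, 17.42 and 17.49 in muscle, 16.52, 15.89 and 16.23 in urothelium, 15.16 and 15.91 in collecting duct and 14.81, 15.21 and 15.18 in proximal tubule. Its log2 fold change was 2.11 (SE 0.33, adjusted p = 0.000607), with every muscle array above every other array. Type V chains take part in starting fibrils and in setting their width. Col5a1 had 14.03, 14.00 and 14.90 in muscle, 13.22, 13.19 and 13.21 in urothelium, 11.89 and 11.79 in collecting duct and 11.72, 12.45 and 13.39 in proximal tubule, a log2 fold change of 1.79 (SE 0.37, adjusted p = 0.00501). Col5a2 had 15.09, 15.27 and 15.67 in muscle, 13.59, 10.47 and 14.39 in urothelium, 11.86 and 13.09 in collecting duct and 11.35, 11.98 and 12.92 in proximal tubule. For Col5a2 the muscle arrays were again highest, with a log2 fold change of 2.89 (SE 0.67, adjusted p = 0.00935), and the call ended with label batch as a block (adjusted p = 0.0599).

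Col11a1 encodes a type XI chain, best known from cartilage fibrils. It had 10.23, 11.12 and 10.10 in muscle, 7.35, 7.44 and 9.95 in urothelium, 9.61 and 8.97 in collecting duct and 9.19, 8.77 and 7.64 in proximal tubule. The lowest muscle array and urothelium replicate 3 differed by little, and the log2 fold change was 1.79 (SE 0.54, adjusted p = 0.0403). This call ended on leaving out any of 9 of the 11 arrays or with the batch block, with adjusted p up to 0.171. It also ended with the mean of its probe sets (1.03, adjusted p = 0.253), the lower pseudocount (adjusted p = 0.0668) and no filter (adjusted p = 0.0522), and a second Col11a1 probe set gave 0.27. The 4 fibrillar chains that passed the filter without a call here were Col2a1, Col5a3, Col24a1 and Col27a1. Col24a1 is taken up with the proximal tubule below.

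**Figure D2:**
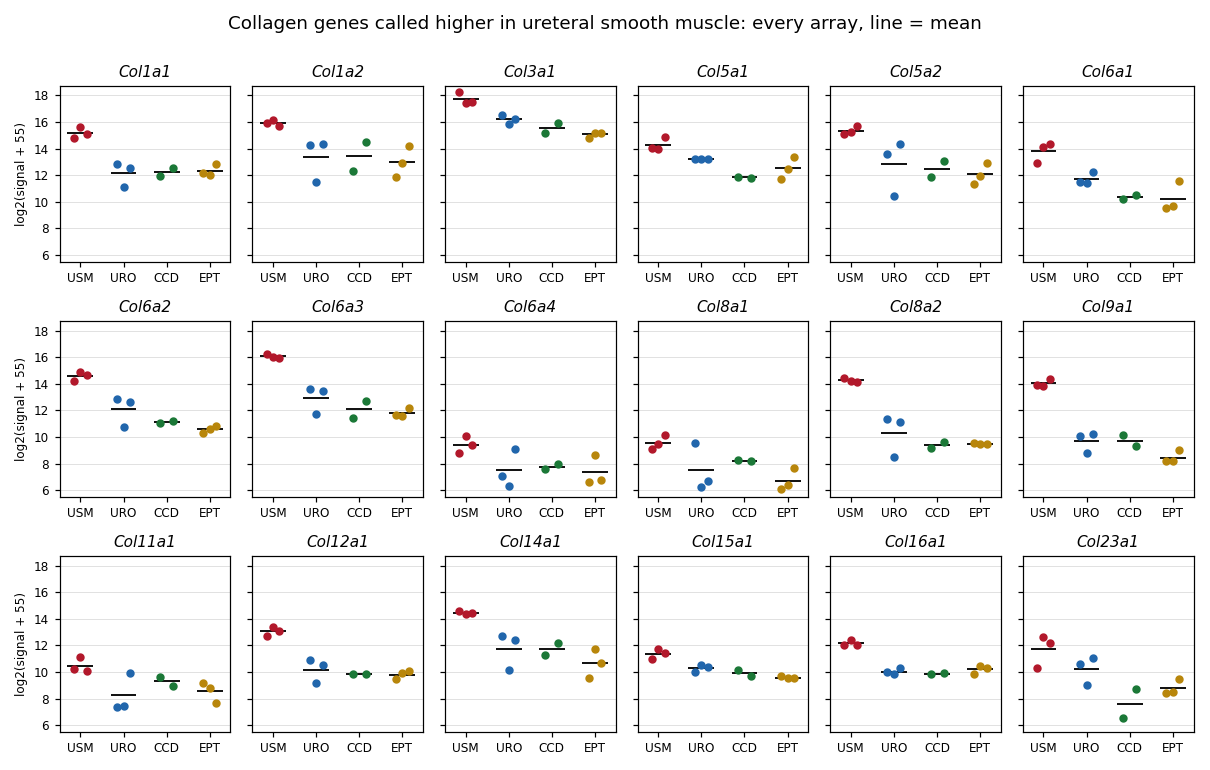
Log2(signal + 55) of chains called higher in ureteral smooth muscle, by array and compartment (USM ureteral smooth muscle, URO urothelium, CCD cortical collecting duct, EPT early proximal tubule). Muscle arrays stand above the rest for most chains, with Col9a1 at 13.86 to 14.37 in muscle, and urothelium replicate 2 is the lowest urothelium array in most panels.

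The fibril-associated chains Col9a1, Col12a1, Col14a1 and Col16a1 were higher in muscle, by 4.33-fold to 27.1-fold. Col9a1, a type IX chain best known from cartilage, where it decorates type II fibrils, had the largest fold change of the 34 chains. It had 13.92, 13.86 and 14.37 in muscle, 10.07, 8.75 and 10.24 in urothelium, 10.16 and 9.30 in collecting duct and 8.16, 8.19 and 9.0 in proximal tubule. The log2 fold change was 4.76 (SE 0.39, adjusted p = 5.77e-06), while a second Col9a1 probe set that passed the filter gave 0.75. The other type IX genes, Col9a2 and Col9a3, and the type II gene Col2a1 were not among the chains called against the mean of the other compartments. Col9a2 and Col9a3 failed the filter, with 7.25 to 8.23 for Col9a2 and 7.97 to 8.29 for Col9a3 in muscle.

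Types XII and XIV bind to type I fibrils in tissues under tension. Col12a1 had 12.74, 13.41 and 13.05 in muscle, 10.86, 9.20 and 10.49 in urothelium, 9.81 and 9.83 in collecting duct and 9.43, 9.91 and 10.08 in proximal tubule, a log2 fold change of 3.13 (SE 0.37, adjusted p = 8.83e-05). Col14a1 had 14.57, 14.33 and 14.46 in muscle, 12.69, 10.13 and 12.43 in urothelium, 11.29 and 12.15 in collecting duct and 9.54, 11.72 and 10.69 in proximal tubule. Its log2 fold change was 3.08 (SE 0.55, adjusted p = 0.0018), and the 3 muscle arrays lay close together on this probe set. Further Col14a1 probe sets that passed the filter gave 1.61 and 0.21, the latter with 6.28, 9.93 and 8.85 in muscle. With the mean of its probe sets, Col14a1 was not called against urothelium (adjusted p = 0.0828) or collecting duct (adjusted p = 0.135). Col16a1, of another fibril-associated type, had 12.01, 12.38 and 12.05 in muscle, 9.98, 9.82 and 10.28 in urothelium, 9.82 and 9.92 in collecting duct and 9.85, 10.41 and 10.33 in proximal tubule. The log2 fold change was 2.11 (SE 0.29, adjusted p = 0.000264), with the other 8 arrays close together.

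The 3 chains of classical type VI collagen, Col6a1, Col6a2 and Col6a3, were each higher in muscle, by 8.18-fold, 9.99-fold and 14.0-fold. Together they form 1 heterotrimer, and Col6a1 and Col6a2 are neighbouring genes. Col6a1 had 12.93, 14.15 and 14.36 in muscle, 11.51, 11.42 and 12.28 in urothelium, 10.22 and 10.52 in collecting duct and 9.52, 9.65 and 11.54 in proximal tubule, a log2 fold change of 3.03 (SE 0.47, adjusted p = 0.000607). Col6a2 had 14.20, 14.85 and 14.68 in muscle, 12.85, 10.77 and 12.64 in urothelium, 11.03 and 11.18 in collecting duct and 10.33, 10.62 and 10.80 in proximal tubule, a log2 fold change of 3.32 (SE 0.42, adjusted p = 0.000139). Col6a3 had 16.24, 16.04 and 15.95 in muscle, 13.61, 11.74 and 13.46 in urothelium, 11.43 and 12.74 in collecting duct and 11.65, 11.55 and 12.16 in proximal tubule, a log2 fold change of 3.81 (SE 0.43, adjusted p = 5.78e-05). In all 3 genes the urothelium arrays 1 and 3 lay between muscle and the tubular epithelia, except that a proximal tubule array of Col6a1 (11.54) lay above urothelium replicate 1.

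The later-described chain Col6a4 had 8.82, 10.05 and 9.42 in muscle, 7.09, 6.34 and 9.12 in urothelium, 7.56 and 7.97 in collecting duct and 6.65, 8.63 and 6.77 in proximal tubule. Its arrays overlapped, the log2 fold change was 1.89 (SE 0.57, adjusted p = 0.0407), and leaving out any of 8 arrays or adding the batch block ended the call, with adjusted p up to 0.165. Its neighbour Col6a5 failed the filter.

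Type VIII collagen, a network former known from the membrane beneath the corneal endothelium and from vessel walls, has the chains Col8a1 and Col8a2. Col8a2 had 14.44, 14.19 and 14.11 in muscle, 11.33, 8.50 and 11.10 in urothelium, 9.13 and 9.65 in collecting duct and 9.54, 9.48 and 9.45 in proximal tubule. The log2 fold change was 4.51 (SE 0.50, adjusted p = 4.82e-05), or 22.9-fold, with more than 2 log2 units between the lowest muscle array and the highest other array. Col8a1 had 9.09, 9.47 and 10.18 in muscle, 9.53, 6.23 and 6.69 in urothelium, 8.29 and 8.15 in collecting duct and 6.06, 6.38 and 7.65 in proximal tubule. Urothelium replicate 1 overlapped with muscle here, and the log2 fold change of 2.11 (SE 0.60, adjusted p = 0.0296) lost its call on leaving out any of 6 arrays or with the batch block, with adjusted p up to 0.145. A pair of further Col8a1 probe sets, which failed the filter, gave -0.72 and -0.26.

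Of the membrane-spanning chains, Col23a1 was higher in muscle and Col13a1 and Col25a1 were not called. Col23a1 had 10.33, 12.63 and 12.16 in muscle, 10.57, 9.04 and 11.04 in urothelium, 6.54 and 8.70 in collecting duct and 8.38, 8.52 and 9.44 in proximal tubule. Its log2 fold change was 2.84 (SE 0.59, adjusted p = 0.00516), and urothelium replicates 1 and 3 lay above the lowest muscle array. Col13a1 had 9.58, 9.31 and 10.10 in muscle, 8.30, 5.93 and 9.68 in urothelium, 8.18 and 8.59 in collecting duct and 8.15, 8.51 and 8.66 in proximal tubule, a log2 difference of 1.40 with an adjusted p of 0.135. Col25a1 had 12.04, 12.68 and 12.30 in muscle, 10.94, 7.39 and 13.17 in urothelium, 11.73 and 12.50 in collecting duct and 12.88, 13.51 and 12.14 in proximal tubule. The 3 urothelium arrays of Col25a1 spanned more than the other 8 arrays together.

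The basement membrane chains did not share 1 pattern. Col18a1, whose protein is released at its end as endostatin and which lies in epithelial and vascular basement membranes, had 10.50, 11.61 and 11.74 in muscle, 13.43, 13.86 and 13.54 in urothelium, 14.66 and 13.64 in collecting duct and 13.44, 13.59 and 13.72 in proximal tubule. It was lower in muscle by a log2 fold change of -2.50 (SE 0.36, adjusted p = 0.000334), with every muscle array below every epithelial array, and its second probe set gave -3.48. The related multiplexin Col15a1, known from muscle and vessel basement membranes, was higher, with 10.96, 11.73 and 11.42 in muscle, 9.99, 10.53 and 10.37 in urothelium, 10.18 and 9.73 in collecting duct and 9.68, 9.51 and 9.53 in proximal tubule. The log2 fold change of Col15a1 was 1.43 (SE 0.30, adjusted p = 0.00543), and its muscle arrays lay above all others.

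Of the 5 type IV chains that passed the filter, Col4a5 was lower in muscle and none was higher. Col4a5, a chain of the mature glomerular membrane that is mutated in Alport syndrome, had 10.35, 11.16 and 10.30 in muscle, 11.62, 11.72 and 11.26 in urothelium, 13.15 and 11.60 in collecting duct and 12.19, 11.41 and 11.82 in proximal tubule. Its log2 fold change was -1.30 (SE 0.38, adjusted p = 0.0327). The call ended with the batch block (adjusted p = 0.0737) and without collecting duct replicate 1, proximal tubule replicate 1 or muscle replicates 1 or 3 (adjusted p = 0.0693, 0.0536, 0.133 and 0.14). Its neighbour on the X chromosome, Col4a6, had 9.31, 10.35 and 9.05 in muscle, 11.47, 9.67 and 9.04 in urothelium, 10.08 and 9.96 in collecting duct and 10.86, 9.61 and 9.66 in proximal tubule, and was not called (95% interval of the log2 difference -1.55 to 0.61). Col4a4 was not called either, with 8.07, 6.86 and 8.64 in muscle, 7.81, 7.12 and 8.15 in urothelium, 9.86 and 8.31 in collecting duct and 6.07, 7.61 and 8.81 in proximal tubule. A further Col4a4 probe set that passed the filter gave -1.29. Its muscle (6.36, 6.67 and 6.27) and urothelium arrays (6.13, 6.31 and 6.02) lay below collecting duct (6.81 and 10.15) and proximal tubule (7.38, 9.035 and 9.19). Another Col4a4 probe set, which failed the filter, gave 1.11.

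Col4a1 and Col4a2 make up the type IV network of nearly all basement membranes and start from the paired promoters printed above. Col4a1 had 15.64, 15.61 and 15.05 in muscle, 13.76, 12.51 and 14.46 in urothelium, 14.67 and 14.68 in collecting duct and 15.31, 15.61 and 14.87 in proximal tubule. The F-test over the 4 compartments called it (adjusted p = 0.0389), and urothelium was lowest. Col4a2 had 11.73, 12.61 and 11.82 in muscle, 11.43, 9.83 and 12.43 in urothelium, 11.46 and 11.26 in collecting duct and 12.22, 12.56 and 12.41 in proximal tubule, with an F-test adjusted p of 0.337. In both genes replicate 2 was the lowest urothelium array.

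**Figure D3:**
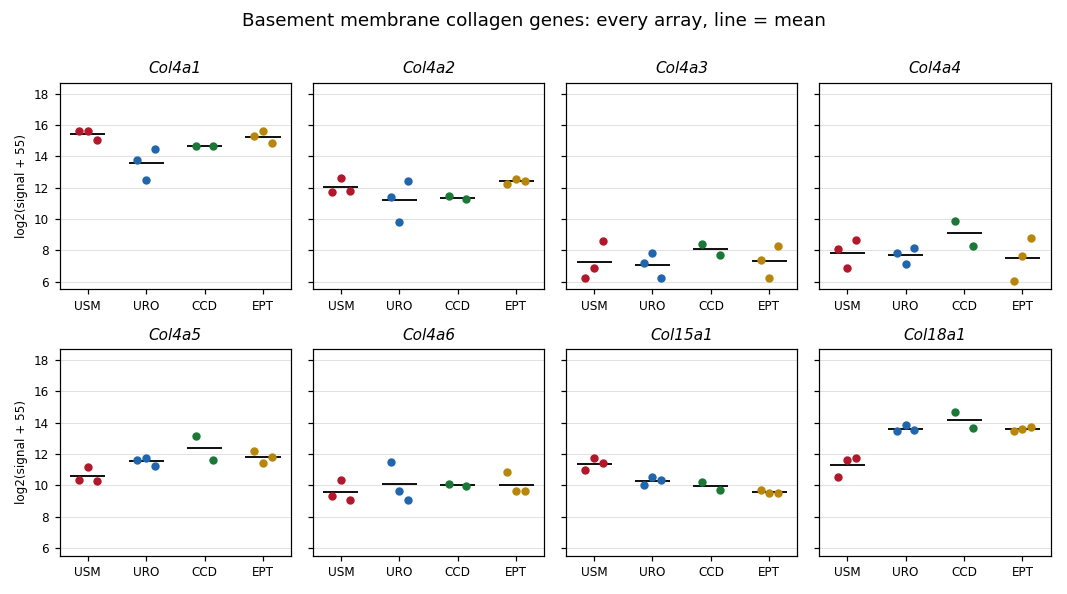
Log2(signal + 55) of the 8 basement membrane chains, Col4a3 having failed the filter, by array and compartment (USM ureteral smooth muscle, URO urothelium, CCD cortical collecting duct, EPT early proximal tubule). Col18a1 is lower in all 3 muscle arrays (10.50 to 11.74) than in any epithelial array, and Col15a1 is higher in muscle.

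Muscle was next set against each epithelium from the same fit. These comparisons share the muscle arrays, so their calls are not independent of each other. Against urothelium, 11 of the 34 chains were higher in muscle and 1 was lower, where 7.96% of all genes were called, 2.93% higher and 5.03% lower. Against collecting duct, 13 were higher and 2 lower, where 8.27% of genes were called, 3.36% higher and 4.91% lower. Against proximal tubule, 18 were higher and 2 lower, where 20.4% were called, 8.06% higher and 12.3% lower. The higher chains in all 3 comparisons were 10: Col1a1, Col3a1, Col6a1, Col6a2, Col6a3, Col8a2, Col9a1, Col12a1, Col14a1 and Col16a1. The share of all genes higher in all 3 was not counted. Of these 10, leaving out some single array ended the collecting duct call of Col1a1, Col3a1 and Col14a1. It ended the urothelium call of Col3a1, Col6a1 and Col14a1. With label batch as a block 5 of the 10 remained higher in all 3, namely Col6a3, Col8a2, Col9a1, Col12a1 and Col16a1. Col18a1 was lower in all 3, by -2.33 against urothelium, -2.87 against collecting duct and -2.30 against proximal tubule (adjusted p = 0.00402, 0.00173 and 0.00174). With the block its call stood against urothelium (adjusted p = 0.0187) and ended against collecting duct and proximal tubule (adjusted p = 0.0746 and 0.1).

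**Figure D4:**
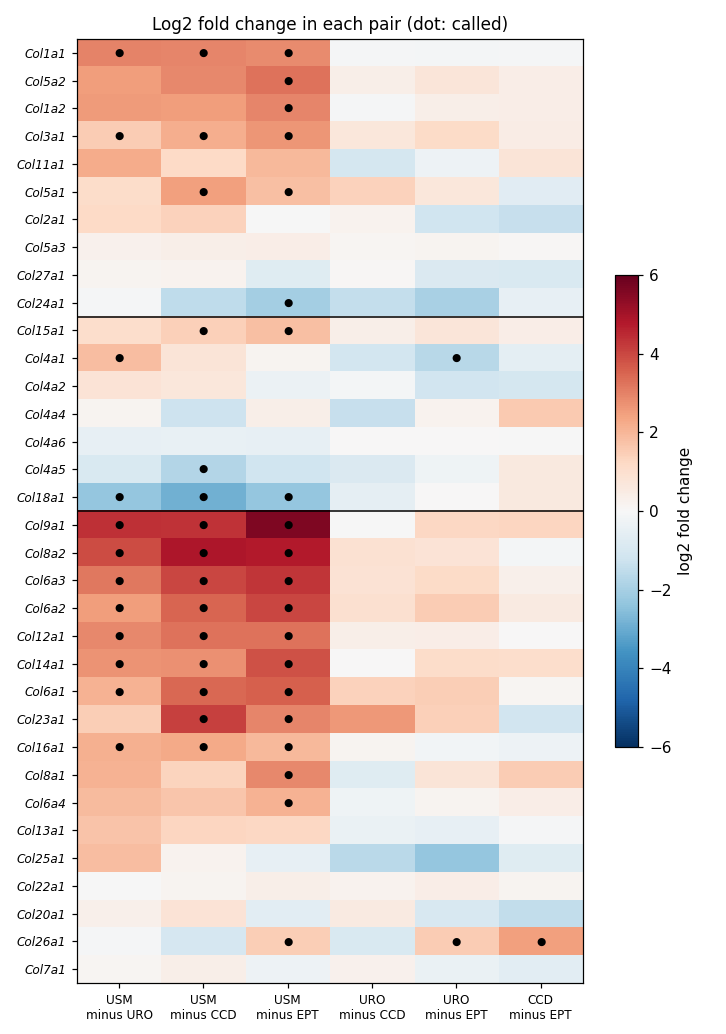
Log2 fold changes of the 34 tested chains (rows) in the 6 pairs of compartments (columns; USM ureteral smooth muscle, URO urothelium, CCD cortical collecting duct, EPT early proximal tubule), red above 0 and blue below, with a dot where called and lines between the fibrillar, basement membrane and other chains. Most dots lie in the 3 muscle columns, where Col9a1 reaches 5.60 against proximal tubule and Col18a1 is below 0.

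The sizes are given side by side, and the differences between them were not tested. Col9a1 gave 4.36 against urothelium, 4.32 against collecting duct and 5.60 against proximal tubule (SE 0.47, 0.52 and 0.47). Col8a2 gave 3.94, 4.85 and 4.76 in the same order (SE 0.60, 0.67 and 0.60), and Col6a3 gave 3.14, 3.99 and 4.29 (SE 0.52, 0.58 and 0.52). Col23a1 was called against collecting duct (4.09, SE 0.80, adjusted p = 0.00517) and against proximal tubule (2.93, SE 0.71, adjusted p = 0.0103), with 1.49 against urothelium and no call. The collecting duct call of Col23a1 ended without either collecting duct array (3.01, adjusted p = 0.109, and 2.73, adjusted p = 0.0601, the value of 2.73 coming from another probe set). Further probe sets of the called chains that passed the filter gave the same sign in all 3 comparisons, except 1 Col14a1 probe set at -0.05 against proximal tubule. Col4a1 was higher in muscle against urothelium (1.85, SE 0.47, adjusted p = 0.028), and this call ended without muscle replicates 1 or 2 or urothelium replicates 1 or 2 and with the batch block, with adjusted p up to 0.147.

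The arrays of 1 label batch allowed the same differences to be read within a batch, without a test. These arrays also gave the calls, so a kept sign was likely beforehand and is no separate support. Against urothelium all 12 called chains kept their sign in batch 1 and in batch 2, with a median log2 difference of 3.08 and 1.88 against 2.60 pooled. Batch 1 held 1 muscle and 2 urothelium arrays, and batch 2 held 1 of each. Against collecting duct all 15 kept it in batch 4 (median 3.60, pooled 2.91), and against proximal tubule all 20 did (median 3.70, pooled 2.90), each from 1 array a side. With label batch as a block the counts were 7 against urothelium, 7 against collecting duct and 11 against proximal tubule. With any single array left out, 8 of the 12 calls against urothelium, 8 of the 15 against collecting duct and 15 of the 20 against proximal tubule were kept every time. The count against collecting duct dropped to 8 without collecting duct replicate 1. The shares of all genes called under these settings are not given here, so no drop is read as particular to collagens.

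Urothelium replicate 2 was often the lowest urothelium array in these genes. For 16 of the 18 muscle-high chains it was the lowest of the 3, as it was for 35.3% of all genes tested. Over the 18, its difference from the mean of replicates 1 and 3 had a median of -1.66 log2 units and a range of -3.52 (Col5a2) to 0.35 (Col15a1). Its interstitium and fibroblast sum was 11620, against 49913 and 54453 in replicates 1 and 3, and its smooth muscle sum of 40471 lay between their 68976 and 15514. Its ratio of 3' to 5' Gapdh control signal was 55.3, against 16.7 and 29.7 in replicates 1 and 3 and 6.79 to 25.9 in the other compartments. The same ratio for actin was 5.43 in replicate 2, against 6.66 and 5.16 in replicates 1 and 3 and 5.07 to 13.5 in the other compartments. The part of any of these in its collagen levels was not tested. Urothelium replicates 1 and 3 both lay above every collecting duct and proximal tubule array for 8 of the 18 chains, where 9.94% of all genes tested did, namely Col3a1, Col5a2, Col6a2, Col6a3, Col8a2, Col12a1, Col14a1 and Col23a1. The 18 were picked by a call that used these arrays, so counts over the 18 are descriptions and not like-for-like with shares of all genes.

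Without urothelium replicate 2, 8 chains were called between muscle and urothelium in place of 12, while 5.52% of all genes were called in place of 7.96%. The 7 higher ones were Col1a1 (2.47), Col6a2 (1.83), Col6a3 (2.54), Col8a2 (3.03), Col9a1 (3.89), Col12a1 (2.39) and Col16a1 (2.02), and Col18a1 was lower (-2.21). Without urothelium replicate 1 the count was 11, with 6% of all genes called. Without urothelium replicate 3 it was 18, with 7.96% of all genes called. The count was also 8 without muscle replicate 2, a run whose share of all genes called is not given here. Leaving out urothelium replicate 2 ended the calls of Col3a1, Col4a1, Col6a1 and Col14a1 against urothelium, with adjusted p between 0.0765 and 0.113. The calls of these chains also ended without muscle replicate 2. In that order their log2 fold changes were 1.34, 1.32, 1.92 and 1.90 without urothelium replicate 2. Without muscle replicate 2 they were 1.65, 1.77, 1.91 and 2.77. The cause of either fall was not tested.

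**Figure D5:**
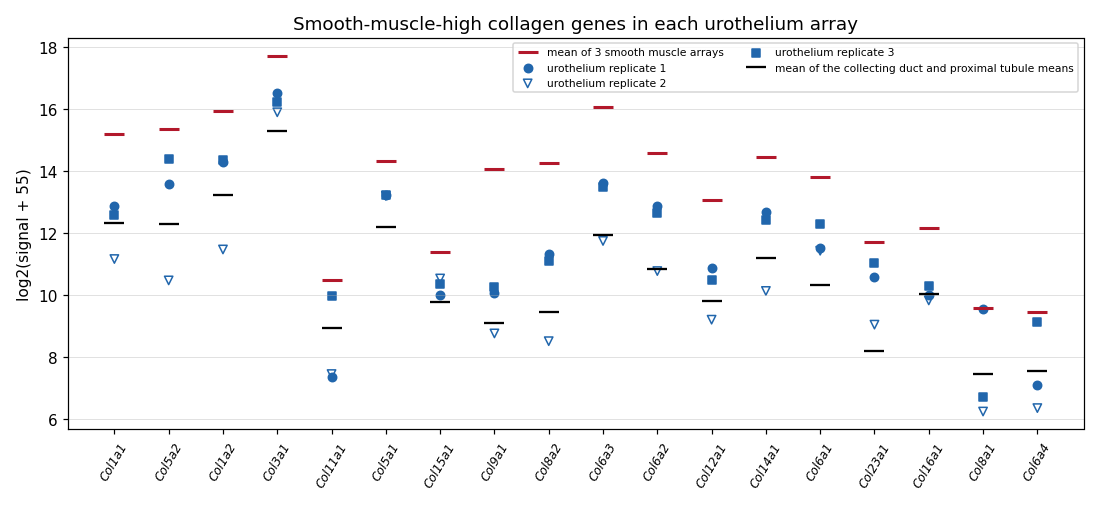
Log2(signal + 55) of the 18 chains called higher in muscle, with each urothelium array as a blue symbol, the mean of the 3 muscle arrays as a red bar and the mean of the collecting duct and proximal tubule means as a black bar. The open triangle of urothelium replicate 2 is the lowest blue symbol for 16 of the 18 chains.

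The 3 epithelia were then set against each other. Between urothelium and collecting duct 0 of the 34 chains passed the limma test, where 0.257% of all genes did, 0.162% higher and 0.0955% lower in urothelium. Of the 34, 3 had an unadjusted limma p under 0.05, a description only, since the like share of all genes was not counted. The log2 differences ran from -1.61 (Col25a1, 95% interval -4.05 to 0.82) to 2.59 (Col23a1, 0.88 to 4.31), so differences of several fold were not detectable for single chains at this number of arrays. Between urothelium and proximal tubule 2 chains were called, 1 higher and 1 lower in urothelium, where 11.5% of all genes were called, 5.02% higher and 6.44% lower. Between collecting duct and proximal tubule 1 was called, higher in collecting duct, where 5.84% were called, 2.19% higher and 3.65% lower.

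Col26a1, which encodes a type XXVI chain first described in testis and ovary, was the chain called in both comparisons with proximal tubule. It had 9.42, 8.87 and 8.62 in muscle, 8.82, 8.33 and 9.95 in urothelium, 9.82 and 10.10 in collecting duct and 7.51, 7.85 and 7.16 in proximal tubule, so that every proximal tubule array lay below every other array. The log2 fold change was 2.45 for collecting duct against proximal tubule (SE 0.50, adjusted p = 0.0104, 5.48-fold), 1.53 for urothelium against proximal tubule (SE 0.45, adjusted p = 0.043) and 1.46 for muscle against proximal tubule (SE 0.45, adjusted p = 0.0346). The collecting duct call ended without either collecting duct array (adjusted p = 0.0601 and 0.0962) and stood with the batch block (2.47, adjusted p = 0.0374). Within label batches 3 and 4 the difference was 2.60 and 2.31. The urothelium call ended without any of 8 arrays, and the muscle call without any of 5, with adjusted p up to 0.163 and 0.123, and both ended with the batch block (adjusted p = 0.705 and 0.419). A second Col26a1 probe set, which failed the filter, gave -0.85 for collecting duct against proximal tubule.

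Col4a1 was lower in urothelium than in proximal tubule, by -1.68 (SE 0.47, adjusted p = 0.0358). The call ended without urothelium replicates 1 or 2 or proximal tubule replicates 1 or 2 (adjusted p 0.0697 to 0.126) and with the batch block. Col24a1, a fibrillar chain known from developing bone, had 5.94, 7.79 and 7.67 in muscle, 6.88, 8.59 and 6.17 in urothelium, 8.43 and 8.87 in collecting duct and 9.34, 8.62 and 9.53 in proximal tubule. It was lower in muscle than in proximal tubule by -2.03 (SE 0.63, adjusted p = 0.0349), and the muscle and proximal tubule arrays did not overlap. This call ended without muscle replicate 1 or proximal tubule replicates 1 or 3 (adjusted p = 0.149, 0.0893 and 0.111) and with the batch block (-1.35, adjusted p = 0.57).

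Without urothelium replicate 2, 7 chains were called between urothelium and proximal tubule in place of 2, while 8.59% of all genes were called in place of 11.5%. The 6 higher in urothelium were Col5a2 (1.91), Col6a2 (2.16), Col6a3 (1.75), Col8a2 (1.72), Col9a1 (1.71) and Col26a1 (1.88), and Col24a1 was lower (-2.64). The 2 urothelium arrays left held interstitium and fibroblast sums of 49913 and 54453, against 8940 to 25161 in proximal tubule, and smooth muscle sums of 68976 and 15514, against 3867 to 6940. The part of these cells in the 6 higher chains was not tested.

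The F-test over the 4 compartments called 18 chains, where 20.1% of all genes were called. Counting every comparison, 23 of the 34 chains were called at least once, a description only, since the like share of all genes was not counted. The other 11 were not called: Col2a1, Col4a2, Col4a4, Col4a6, Col5a3, Col7a1, Col13a1, Col20a1, Col22a1, Col25a1 and Col27a1. The F-test adjusted p of these 11 ran from 0.134 to 0.884, and the distance between their highest and lowest compartment means from 0.38 to 2.34 log2 units. Col7a1, the anchoring fibril chain of stratified epithelia, averaged 9.87 ± 0.71 in muscle, 9.76 ± 0.20 in urothelium, 9.52 ± 0.01 in collecting duct and 10.17 ± 0.09 in proximal tubule (SD, n = 3, 3, 2 and 3). The interval of its muscle difference, -0.67 to 0.77, excludes a change of more than 1 log2 unit on this scale. Col5a3, a further type V chain, averaged 8.87 ± 0.28 in muscle, 8.63 ± 0.33 in urothelium, 8.51 ± 0.32 in collecting duct and 8.46 ± 0.55 in proximal tubule (SD, same n).

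The highest mean of a chain was outside muscle in 13 cases. Proximal tubule held it for Col2a1, Col4a2, Col7a1, Col20a1, Col24a1, Col25a1 and Col27a1, collecting duct for Col4a4, Col4a5, Col18a1 and Col26a1, and urothelium for Col4a6 and Col22a1. For most of these, neighbours in the order did not differ beyond their spread. Further probe sets that passed the filter placed the highest mean elsewhere for Col4a4, Col4a6, Col18a1, Col22a1 and Col25a1. That of Col22a1 had 8.97, 8.84 and 9.05 in muscle, above all other arrays, and gave 1.36 against the mean of the others. The cartilage chain Col2a1 had 6.54, 8.0 and 8.64 in muscle, 6.37, 6.40 and 6.82 in urothelium, 6.26 and 6.40 in collecting duct and 6.25, 7.70 and 9.24 in proximal tubule, so its spread within muscle and proximal tubule was as wide as that between compartments. Col27a1 averaged 10.73 ± 0.50 in muscle, 10.59 ± 0.33 in urothelium, 10.52 ± 1.13 in collecting duct and 11.44 ± 0.37 in proximal tubule (SD, same n).

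The 8 chains that failed the filter were Col4a3, Col6a5, Col9a2, Col9a3, Col10a1, Col11a2, Col17a1 and Col19a1, with log2 values between 5.92 and 9.54 over all arrays. With no filter, Col9a2 was called higher in muscle than the mean of the others (1.34, adjusted p = 0.0351) and than urothelium (1.68, adjusted p = 0.0444), and Col9a3 higher in muscle than in proximal tubule (1.61, adjusted p = 0.0117). Col9a2 had 7.25, 8.23 and 8.10 in muscle, 6.19, 6.17 and 6.17 in urothelium, 6.55 and 7.02 in collecting duct and 7.52, 5.99 and 6.31 in proximal tubule, and the lowest muscle array lay below a proximal tubule array.

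Genes that make, bind, sense and break down collagen were read from 5 lists. Of 21 tested genes for hydroxylation and folding of new chains, 2 were higher in muscle than the mean of the others and 0 lower (median 0.48, against -0.07 over all genes), near the share of all genes called higher (6.05%, with 9.12% lower), beside which the counts of the other lists stand as well. They were P4ha2, a catalytic subunit of prolyl hydroxylase (2.41, SE 0.41, adjusted p = 0.00116), and Sparc, a collagen-binding matrix protein (1.93, adjusted p = 0.00839). The collagen chaperone Serpinh1 gave 0.63 (adjusted p = 0.351). P4ha2 had 11.73, 10.88 and 11.55 in muscle, with 7.23 to 10.29 in the other arrays. Of 10 tested genes for propeptide cleavage and cross-linking, 2 were higher and 0 lower (median 1.22): Tgm2, a transglutaminase (2.36, adjusted p = 0.000251), and Bmp1, which cleaves procollagen (1.22, adjusted p = 0.0394). Lox, the lysyl oxidase that starts cross-links, gave 1.94 and missed the call (adjusted p = 0.0527).

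Of 10 tested partners that bind collagen fibrils, 6 were higher in muscle and 0 lower (median 1.67), with the small proteoglycans Lum (5.38, SE 0.63, adjusted p = 7.18e-05) and Dcn (4.72, SE 0.47, adjusted p = 2.17e-05) in front. Lum had 15.72, 16.08 and 15.66 in muscle, 12.87, 10.80 and 12.75 in urothelium, 9.33 and 11.66 in collecting duct and 7.92, 7.89 and 10.28 in proximal tubule. The muscle arrays stood above the rest, and urothelium replicate 2 was again the lowest of its group. Postn, a matricellular protein, gave 2.68 (adjusted p = 0.000461) and Bgn, another small proteoglycan, 2.43 (adjusted p = 0.00685).

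The 8 tested collagen receptors moved both ways, with 2 higher and 3 lower in muscle (median 0.78). Itga1, the integrin subunit that binds type IV and type I collagen, was higher (2.31, SE 0.36, adjusted p = 0.000704), as was Mrc2, which takes up collagen for breakdown (2.25, adjusted p = 0.00101). Itga1 had 12.83, 13.45 and 13.03 in muscle and 12.87, 12.72 and 12.92 in proximal tubule, so its difference lay with urothelium (10.36, 9.10 and 10.58) and collecting duct (9.21 and 9.88). Adgrg6, an adhesion receptor reported to bind type IV collagen, was lower (-4.73, SE 0.46, adjusted p = 1.92e-05), as were Adgrg1, reported to bind type III collagen (-2.85, adjusted p = 0.000375) and the collagen-activated kinase Ddr1 (-1.65, adjusted p = 0.00561). Adgrg6 had 9.18, 8.31 and 7.72 in muscle, with 11.62 to 14.80 in the 8 epithelial arrays. Of 9 tested genes of matrix breakdown and its inhibitors, 7 were higher and 0 lower (median 1.58), among them the protease Mmp2 (2.09), which cleaves denatured collagen, and the inhibitors Timp2 (1.95) and Timp3 (1.92).

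The same lists were read between the epithelia. Urothelium against proximal tubule had 5 of 10 fibril partners higher and 0 lower, where 5.02% of all genes were higher and 6.44% lower, with Lum 3.44 and Fmod 2.94 (adjusted p = 0.000737 for Fmod), beside the interstitium and fibroblast sums given above. In the same comparison 1 of 21 hydroxylation and folding genes was higher (Colgalt1, 1.47) and 4 were lower, among them P3h2, a prolyl hydroxylase that acts on type IV collagen (-3.11, SE 0.77, adjusted p = 0.0193), and Itga1 was lower (-2.82, adjusted p = 0.00101). Collecting duct against proximal tubule gave Postn 2.59 and Adgrg6 2.27 as higher and Itga1 -3.29 and Tgm2 -2.66 as lower. Urothelium against collecting duct gave 0 calls in the 5 lists by limma.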

How the data were processed

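RNA of laser-captured compartments was hybridised to 11 one-colour Affymetrix arrays. The authors deposited linear intensity values for 45101 probe sets, made with an unstated version of GCOS according to the submitters' processing notes and per the labels. The mean signal of every array, after trimming 2% of probe sets at each end, was 1500, and that scaling was kept. The files used here hold no detection calls, so whether a dim probe set was detected cannot be read from them. The small number of arrays per compartment limits the precision. Compartments were read from the labels, and replicate numbers follow accession order and pair nothing.

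Intensities were turned into log2(signal + 55), where 55 is the table's 20th percentile after rounding. Probe sets with 1 symbol (34945) were kept if they exceeded the array-wide median on 2 or more arrays, and a gene was read from the kept probe set with the highest mean. limma 3.58.1 in R 4.3.3 was fitted once to 13614 genes and 4 compartments without covariates (7 residual and 6.38 prior degrees of freedom). Calls need a Benjamini-Hochberg adjusted p under 0.05 over all genes and a log2 fold change of 1 or more in either direction (for the F-test, that distance between compartment means). There were 7 comparisons. Members called in any comparison are given by array, and of each list up to 4 called genes with the largest moderated t. Serpinh1, Lox, Ddr1 and Colgalt1 were named after their values were seen, as were chains shown by array without a call. The members and lists were chosen with earlier results of these data known, so no p is adjusted over a list alone.

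A simulation of 13614 genes, of which 100 differed by a log2 of 1.5 and another 100 by 3, checked the fit. The changes were placed in muscle alone, with independent normal noise and no batch. In the data 15.2% of genes were called for muscle against the mean of the others, far more than were changed here. The rates below therefore describe the simulation and not the power or error of the real comparisons. For muscle against the mean of the others the simulation recovered 30% of the smaller and 87% of the larger changes, with 0 in the wrong direction and 4 false calls. The pairs of muscle did less well. Of the smaller changes 12% were found against urothelium, 7% against collecting duct and 15% against proximal tubule. Of the larger ones 74%, 66% and 72% were found in that order, with 3, 1 and 7 false calls. Promoters were taken from a RefSeq table of build GRCm38.p6. Figures were made in Python 3.11.15 using pandas 2.3.3 and matplotlib 3.10.9.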

Additional observations from a re-analysis of the deposited data

How the results depend on the processing

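The values were recomputed with quantile normalization, with 12 or 190 in place of 55 as the pseudocount, without the filter or with one at the 75th percentile, from the averaged probe sets of each gene, without x, s or a probe sets, with limma's trend and robust options, with the label batch as a block (fixed, then random), and with single arrays left out. No fold change of a called chain changed sign under any of them. Of 70 calls (a chain in a comparison), 38 were kept under every alternative that held the chain, and 14 of the 20 against the mean of the other compartments were. With label batch as a fixed block the called chains numbered 7 for muscle against urothelium, 7 against collecting duct, 11 against proximal tubule and 0 for urothelium against proximal tubule, and the median standard error of the muscle comparison grew from 0.39 to 0.474. Urothelium against proximal tubule gave 1 with the pseudocount of 12, 4 with 190, 1 with no filter and 1 without x, s or a probe sets. Collecting duct against proximal tubule gave 0 with the stricter filter and without x, s or a probe sets, neither of which tested Col26a1. Over the left-out arrays the counts ran from 14 to 22 for the F-test, 15 to 21 for muscle against the mean of the others, 8 to 18 against urothelium, 8 to 17 against collecting duct and 16 to 21 against proximal tubule. They ran from 0 to 7 for urothelium against proximal tubule and from 0 to 1 for collecting duct against proximal tubule, and urothelium against collecting duct stayed at 0. These counts stand without the shares of all genes called under each setting, so no shift is read as particular to collagens. The cause of these shifts was not tested.

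No paired analysis was possible because the replicate numbers follow accession order and pair nothing, and the label batch, which some arrays share across compartments, was fitted as a block instead. Dim probe sets limit the chains near the 55 added to each signal, whose folds are understated.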
